A study of Mus musculus with 10 samples.

Results

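In CA1 neuronal nuclei, 4452 of 19106 eligible autosomal protein-coding genes (23.3%) carried no H3K4me3 peak within 2 kb of either end of the gene in any of 8 libraries. The genes were chosen from the peak lists themselves: the window of 2 kb to each side of both ends of the RefSeq gene model had to hold 0 covered bp in every library. Eligible genes are 20560 autosomal coding genes less the olfactory and vomeronasal receptor genes named Olfr, Vmn1r and Vmn2r. The 20560 do not include a further 101 genes with listed positions in the first 3 Mb of an autosome, where no library had a peak. Those 101 were taken to lie on other scaffolds and were left out. Of the other 14654 eligible genes, 13004 had a peak at an end in all 8 libraries. The set was not uniformly without the mark. Of the 4452 genes, 3483 also had no peak more than 2 kb inside both ends, which the 1012 shortest cannot have. However, 969 had a peak within the gene in at least 1 library and 596 had one in all 8. The genes are therefore called unmarked-end genes here, and the counts below that rest on the rule describe the choice and carry no test.

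The libraries came from nuclei carrying the neuronal protein NeuN, sorted from dissected hippocampal area CA1 of male mice aged 3 months. There were 4 libraries of CamkdeltaC transgenic mice and 4 of littermate controls labelled wildtype. This grouping follows the sample titles. Letter codes attached to a sample's description disagree with those on its peak list. Every comparison of the groups below therefore rests on the titles being right, which was not tested. CaMKIIδC is 1 of the splice variants of CaMKIIδ, a protein kinase that calcium and calmodulin switch on, and is abundant in heart muscle. The comparison asks whether H3K4me3 in these neurons differs with the transgene, in a study titled as linking heart failure to memory. The labels do not name the promoter that drives the transgene. They describe vorinostat or vehicle in the drinking water of transgenic mice and vehicle for controls, and do not say which of these a transgenic library received. Whether the 8 libraries came from separate animals is not stated either, so each p-value below is measured against a sample-to-sample spread that could be technical in origin.

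H3K4me3, trimethylated lysine 4 of histone H3, sits on the nucleosomes around active and poised transcription start sites. It is deposited by SET1 and MLL methyltransferases, which are drawn to unmethylated CpG-rich DNA through CXXC domain proteins and to initiating RNA polymerase. Genes used only in other tissues commonly lack it, and those with CpG-poor promoters lack it most often. A long gene may have several start sites, and the mark then lies at the one in use, which can be far inside the outer limits of the gene model.

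Lists held 51903 to 66811 peaks in controls and 60388 to 102285 in transgenic samples, with 49734 to 70908 of them on autosomes. The number of reads behind each is unknown. Although every sample is labelled male, 5 libraries (2 control, 3 transgenic) had 4 to 15 peaks on Y and the other 3 had 1024 to 1220. All members are autosomal. In the 5 libraries alone 4650 genes met the rule, and in the 3 alone 4777. Each single library left 5109 to 5566 genes unmarked. Chromosome 7 held 18.9% of autosomal peaks on average, and 20.1% of its genes had unmarked ends, within the range over all autosomes of 19.1% on chromosome 13 to 34.6% on chromosome 14. The labelled cell type was checked against 19 pan-neuronal genes, among them Rbfox3, which encodes NeuN, Snap25 and Syt1. All 19 had a peak at an end in all 8 libraries. Markers of other brain cells differed by cell type. Ends were unmarked in 14 of 19 microglial and macrophage genes and in 7 of 12 endothelial genes. The same held for 5 of 14 oligodendrocyte and 3 of 12 astrocyte genes. The astrocyte share, 25%, was close to the 23.3% of all eligible genes, so that list cannot show whether astrocyte nuclei were absent. Of the 12 astrocyte genes 7 were marked in all 8 libraries, among them Slc1a2, Slc1a3 and Gja1. Of the 14 oligodendrocyte genes 5 were, among them Mbp, Cnp and Cldn11.

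Promoter sequences of unmarked-end genes fall into a common CpG-poor kind and a rarer CpG-rich kind, and 4 are shown to give both. Each is the stretch from 250 bases before to 50 after a start site listed in RefSeq (GRCm38.p6, the coordinates of mm10), 5′ to 3′, with every CG in capitals. A CG was searched as those letters, which read the same on both strands, and 97.4% of all listed starts of eligible genes held at least 1. Alb, the serum albumin gene of hepatocytes, and Krtap3-1, a keratin-associated protein gene of the hair shaft, are CpG-poor, with 3 and 4 CG. Ddx4, a germ cell RNA helicase, and Evx2, a homeobox factor of the limb and spinal cord, are CpG-rich, with 38 and 16. No library had a peak within 2 kb of any of these 4 starts.
Alb (chr5:90460620-90460919, plus strand): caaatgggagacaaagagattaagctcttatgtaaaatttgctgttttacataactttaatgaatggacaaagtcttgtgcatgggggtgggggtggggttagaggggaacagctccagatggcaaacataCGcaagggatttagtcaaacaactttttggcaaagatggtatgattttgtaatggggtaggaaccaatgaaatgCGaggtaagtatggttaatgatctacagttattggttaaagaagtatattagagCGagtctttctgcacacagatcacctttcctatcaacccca
Krtap3-1 (chr11:99566581-99566880, minus strand): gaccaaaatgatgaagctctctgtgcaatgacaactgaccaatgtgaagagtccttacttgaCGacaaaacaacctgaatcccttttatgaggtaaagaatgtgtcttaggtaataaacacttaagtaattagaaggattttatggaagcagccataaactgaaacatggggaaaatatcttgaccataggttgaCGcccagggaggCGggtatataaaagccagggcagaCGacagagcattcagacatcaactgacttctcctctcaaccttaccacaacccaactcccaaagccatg
Ddx4 (chr13:112652261-112652560, minus strand): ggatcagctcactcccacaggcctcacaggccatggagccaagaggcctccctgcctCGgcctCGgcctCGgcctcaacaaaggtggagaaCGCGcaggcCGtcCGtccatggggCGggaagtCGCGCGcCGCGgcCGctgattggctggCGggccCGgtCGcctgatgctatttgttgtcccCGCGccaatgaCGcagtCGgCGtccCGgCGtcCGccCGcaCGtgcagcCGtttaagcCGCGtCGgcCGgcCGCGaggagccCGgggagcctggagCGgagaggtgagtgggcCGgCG
Evx2 (chr2:74659508-74659807, minus strand): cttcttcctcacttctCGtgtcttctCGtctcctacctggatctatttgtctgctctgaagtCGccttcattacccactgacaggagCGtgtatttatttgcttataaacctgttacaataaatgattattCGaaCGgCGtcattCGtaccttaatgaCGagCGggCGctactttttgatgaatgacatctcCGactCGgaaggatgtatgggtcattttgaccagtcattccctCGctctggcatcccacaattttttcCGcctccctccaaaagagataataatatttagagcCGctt

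The other promoters shown belong to neuron-expressed genes whose ends were unmarked but whose interior was not. Mef2c encodes a transcription factor that controls synapse number in excitatory neurons. Its 3 listed starts show the pattern within 1 gene: the middle start lies 19.6 kb inside the gene model and had a peak within 2 kb in all 8 libraries, while the outer and the innermost had none in any. Shank3 encodes a scaffold of the postsynaptic density, and its single listed start lies 6.6 kb inside the model and was marked in all 8.
Mef2c, outer start (chr13:83503784-83504083, plus strand): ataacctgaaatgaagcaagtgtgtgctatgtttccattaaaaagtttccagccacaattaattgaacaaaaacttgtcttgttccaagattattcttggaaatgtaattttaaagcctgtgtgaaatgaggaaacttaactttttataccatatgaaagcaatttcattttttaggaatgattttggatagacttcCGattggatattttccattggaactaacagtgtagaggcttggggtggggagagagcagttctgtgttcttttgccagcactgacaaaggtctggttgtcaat
Mef2c, middle start (chr13:83523406-83523705, plus strand): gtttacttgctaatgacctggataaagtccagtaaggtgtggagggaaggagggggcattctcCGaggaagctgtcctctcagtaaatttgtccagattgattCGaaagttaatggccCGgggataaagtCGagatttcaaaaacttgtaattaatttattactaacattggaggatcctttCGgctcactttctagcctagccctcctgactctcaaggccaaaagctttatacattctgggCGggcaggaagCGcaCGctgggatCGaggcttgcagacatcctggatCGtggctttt
Mef2c, innermost start (chr13:83573357-83573656, plus strand): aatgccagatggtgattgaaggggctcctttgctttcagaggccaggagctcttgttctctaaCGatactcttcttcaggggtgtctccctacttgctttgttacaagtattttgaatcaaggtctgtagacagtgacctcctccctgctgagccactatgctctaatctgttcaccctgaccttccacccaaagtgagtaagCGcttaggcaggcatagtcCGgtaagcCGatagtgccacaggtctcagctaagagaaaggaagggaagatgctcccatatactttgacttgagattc
Shank3 (chr15:89499358-89499657, plus strand): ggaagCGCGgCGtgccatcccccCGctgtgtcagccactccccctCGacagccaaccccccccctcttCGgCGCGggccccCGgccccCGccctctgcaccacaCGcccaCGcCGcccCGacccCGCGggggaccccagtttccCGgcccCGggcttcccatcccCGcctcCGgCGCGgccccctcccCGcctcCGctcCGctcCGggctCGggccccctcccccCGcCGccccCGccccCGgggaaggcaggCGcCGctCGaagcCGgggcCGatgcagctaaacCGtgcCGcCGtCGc

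The marked Mef2c start held 10 CG, against 1 and 4 in the unmarked ones, and the marked Shank3 start held 40.

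Gene lists of other tissues and cell types were unmarked to very different degrees, from 24.3% of developmental transcription factors to 88.6% of liver genes. Across 28 such lists, 427 of 668 genes (63.9%) had unmarked ends, against 23.3% of all eligible genes. The share was above 23.3% in all 28 lists, but only slightly in developmental transcription factors and in astrocyte genes (25%). Some listed genes are also used by neurons. Of those 427, 380 had no peak inside either, 28 had one in 1 to 7 libraries and 19 in all 8. A body peak lies more than 2 kb inside both ends, so genes of up to 4 kb cannot have one. How many genes of each list or family are that short was not counted, so a missing body peak here and below is partly set by length. A gene called marked here and below has a peak within 2 kb of either end. That peak may lie away from the gene's own start or belong to a neighbouring gene, which was not examined for these lists.

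**Figure D1:**
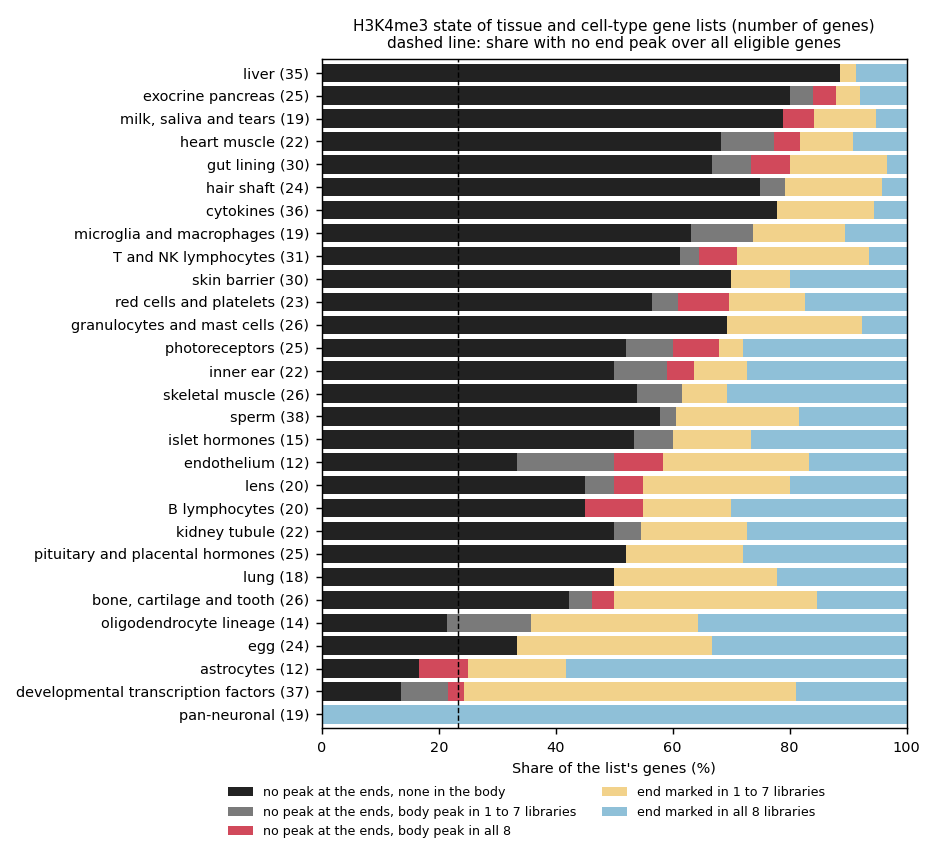
Share of each list's genes (x axis, %) by H3K4me3 state, with the number of genes per list in brackets; the dashed line is the 23.3% of all eligible genes with no peak at either end. Liver stands at the top with 31 of 35 genes, pan-neuronal genes at the bottom with 0 of 19, and developmental transcription factors differ from the tissue lists in that 21 of 37 were marked in only some libraries.

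Digestive and secretory programmes had some of the highest shares. In the liver list, 31 of 35 genes had unmarked ends and none of the 31 had a body peak. They included Alb, Apoh, a phospholipid-binding plasma protein, Ahsg, the plasma glycoprotein fetuin-A, and Fga, the fibrinogen alpha chain. The exceptions Apoa1 and Apoa2, apolipoproteins of HDL, had a peak at an end in all 8 libraries, and Hpd, an enzyme of tyrosine breakdown, in 2. The exocrine pancreas had 22 of 25, among them the trypsinogens Prss1 and Prss2 and the elastases Cela2a and Cela3b. Of its exceptions, Pla2g1b and Ptf1a were marked in all 8. The gut lining had 24 of 30, with Fabp2, which binds fatty acids, Sis, sucrase-isomaltase, and Vil1, the actin bundler of microvilli. Lct, lactase, was also unmarked at its ends but had a body peak in all 8 libraries, covering 773 bp on average. Milk, saliva and tear proteins had 16 of 19, including the caseins Csn1s1, Csn2, Csn3 and Csn1s2a. Islet genes had 9 of 15: Ins1, Ins2, Gcg and Iapp were unmarked, while Sst, the somatostatin gene that interneurons also express, was marked in all 8.

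Most skin and hair genes were unmarked too. The skin barrier list had 21 of 30 genes unmarked, all 21 without a body peak, such as Krt5 and Krt14 of basal keratinocytes and Flg and Ivl of the cornified layer. Krt1, Krt10 and Lor, also of differentiating keratinocytes, were nevertheless marked in all 8 libraries. The hair shaft list had 19 of 24, with the hard keratins Krt31, Krt33a, Krt81 and Krt83.

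Heart muscle had 18 of 22 genes unmarked, with the myosin heavy chains Myh6 and Myh7, the troponin Tnnt2, which had a body peak in 1 library, and the natriuretic peptide Nppa. Ryr2, the calcium release channel that neurons also use, was marked in all 8 libraries. Skeletal muscle had 16 of 26: the fast and embryonic myosins Myh1, Myh2, Myh4 and Myh3 were unmarked, whereas Acta1, Ckm and Mylpf were marked in all 8. The kidney tubule had 12 of 22, including Umod, uromodulin, and the salt transporters Slc12a1 and Slc12a3. The lung had 9 of 18, including the surfactant genes Sftpb and Sftpa1, with Sftpc marked in all 8.

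Among blood and immune genes, cytokines had 28 of 36 unmarked, none of the 28 with a body peak. Il2, Il3, Il4 and Il5, growth and differentiation factors of lymphocytes and myeloid cells, were among them, and Il1a was marked in all 8. T and NK lymphocytes had 22 of 31, with the receptor chains Cd3e and Cd3g and the surface proteins Cd2 and Cd5, but Cd4 was marked in all 8. B lymphocytes had 11 of 20, with Cd79b and Cd22. Granulocytes and mast cells had 18 of 26, with the proteases Elane and Ctsg and the granule proteins Camp and Ltf. Microglia and macrophages had 14 of 19: P2ry12, Tmem119, Aif1 and Csf1r, which define microglia, were all unmarked with no body peak. Red cells and platelets had 16 of 23, with Slc4a1 of the red cell membrane.

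Reproductive and sensory programmes were mixed. Sperm genes had 23 of 38 unmarked, with the protamines Prm1 and Prm2 and the transition protein Tnp1, although Tnp2 was marked in all 8. Egg genes had 8 of 24, with the zona pellucida genes Zp1, Zp2 and Zp3. Pituitary and placental hormones had 13 of 25, with Prl, Gh, Tshb and Fshb unmarked and Pomc marked in all 8. Photoreceptor genes had 17 of 25, with arrestin (Sag) and recoverin (Rcvrn). Inner ear genes had 14 of 22, with the tectorins Tecta and Tectb. Lens genes had 11 of 20, with the crystallins Cryaa, Cryba1 and Crybb2. Bone, cartilage and tooth genes had 13 of 26, with the enamel matrix genes Ambn and Enam.

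Developmental transcription factors had 9 of 37 unmarked (24.3%), close to the 23.3% of all eligible genes. Another 21 of the 37 had a peak at an end in 1 to 7 libraries, such as Hoxb1 in 1. Hox factors as a family had the same form, with 12 of 39 unmarked, 25 marked in some libraries and 2 in all 8.

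The families with the highest shares of unmarked-end genes were mostly of secreted, barrier and immune proteins. Of 67 families with at least 8 eligible genes, 54 had a larger share of unmarked-end genes than the 23.3% background. The late cornified envelope proteins of the skin stood at 21 of 21 and the Cd300 receptors of myeloid cells at 12 of 12. Keratin-associated proteins followed with 55 of 56 and carboxylesterases, which hydrolyse lipid esters and drugs, with 18 of 19. Trace amine receptors, expressed in the olfactory epithelium, had 14 of 15. Small proline-rich proteins of the cornified layer had 13 of 14, as had the lipid-binding Bpif proteins. Lipocalins had 10 of 11, granzymes 9 of 10, CC chemokines 21 of 24, the membrane proteins of the Ms4a family 18 of 21 and type I interferons 17 of 20. Apart from 1 CC chemokine gene, no unmarked-end gene of these families had a body peak in all 8 libraries. Genes of up to 4 kb cannot have one, so for the short genes of these families this absence was fixed beforehand. Other families of such proteins had lower shares, with 21 of 42 beta-defensins, 13 of 27 kallikreins, 17 of 40 secretoglobins and 4 of 12 CXC chemokines. Genes of a family share sequence and often a locus, so they are not independent cases.

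**Figure D2:**
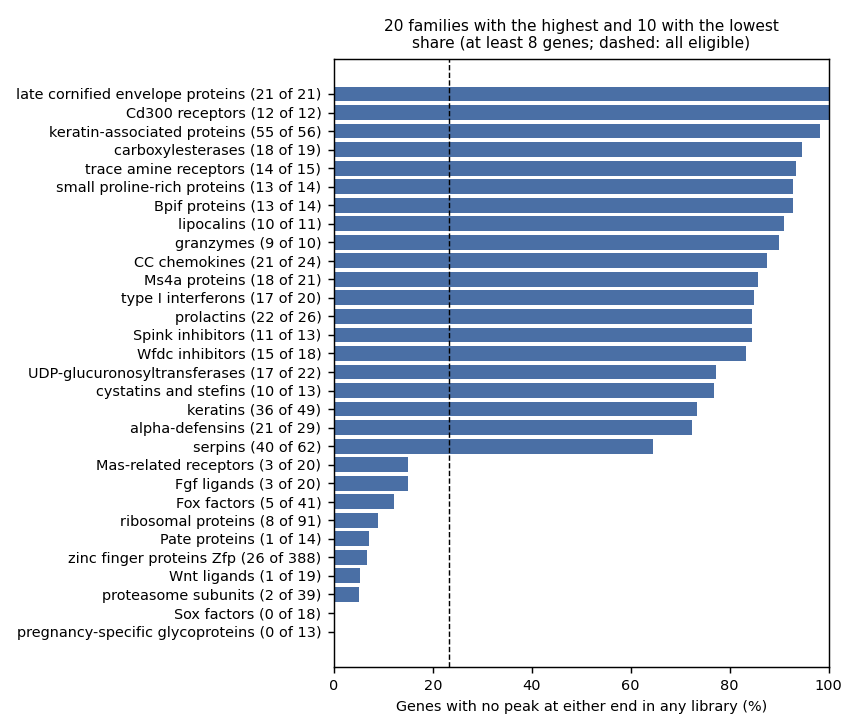
Share of eligible genes with no peak at either end in any library (x axis, %) for the 20 gene families with the highest and the 10 with the lowest shares, with counts in brackets; the dashed line is the 23.3% of all eligible genes. Skin, secretory and immune families reach 64.5 to 100%, while proteasome, zinc finger and Sox families lie far under the line.

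Families with the smallest shares were of several kinds, some regulators and housekeeping complexes among them. Sox transcription factors had 0 of 18, proteasome subunits 2 of 39, Wnt ligands 1 of 19 and zinc finger proteins named Zfp 26 of 388. The proteasome exceptions differ from one another: Psma6, a core subunit, had a body peak of 1.78 to 1.96 kb in all 8 libraries, while Psma8, the testis form, had a body peak of 200 bp in control replicate 3 and none in the other 7. The Wnt exception, Wnt8b, a ligand of the developing forebrain, had a body peak in all 8. Pregnancy-specific glycoproteins, secreted by the placenta, had 0 of 13, all 13 marked in all 8 libraries. They lie on chromosome 7, whose share of peaks is given above, and its part in this count was not tested. Ribosomal protein genes had 8 of 91. Predicted genes with Gm numbers had 611 of 959 and genes with Riken clone names 152 of 391, and leaving both out reduces the set to 3689.

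Within enzyme and structural protein families, the tissue-restricted copy was often unmarked beside a marked broad copy. In 27 pairs chosen after the family counts were seen, the restricted copy was an unmarked-end gene in 15 and was marked in all 8 libraries in 8. The broad copy was marked in all 8 in 24. Unmarked restricted copies included the muscle calcium pump Atp2a1 beside Atp2a2, the muscle oxidase subunit Cox6a2 beside Cox6a1 and the platelet tubulin Tubb1 beside the neuronal Tubb3. The broad copies of the other 3 pairs, Ldha, Cox7a2 and Hk1, met the rule too, and each had a body peak in all 8 libraries at a listed start of its own.

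Unmarked-end genes often lay side by side. Ordered along the chromosomes, they formed 2493 runs of neighbouring coding genes, 1737 of them of a single gene. The 132 runs of at least 5 genes held 1157 genes (25.99%), and 30 runs of at least 10 held 505. The longest, 60 genes over 1065 kb at chr16:88505807-89571183, ran from Cldn17 to Krtap11-1. It was made up mostly of keratin-associated and Gm-numbered predicted genes. None of the 60 had a body peak, which genes of up to 4 kb cannot have. The next held 29 keratin, keratin-associated and predicted genes at chr11:99428385-99815666. A run of 27 genes at chr5:87065927-88527897 joined glucuronosyltransferases, sulfotransferases, caseins, salivary proteins and the enamel genes Amtn, Ambn and Enam. A run of 26 at chr3:92483954-92993426 held the late cornified envelope genes with Sprr1a and Ivl, and 24 more keratin-associated and predicted genes lay at chr10:77686108-77886994. Further runs held the serpin genes of chr12:103616675-104394259 (22 genes) and the placental prolactins of chr13:27242430-28151595 (18 genes).

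Peaks inside the gene left aside, the distance from the ends to the nearest outside peak of any library had a median of 19.97 kb, with quartiles of 8.08 and 45.7 kb. It exceeded 10 kb for 3081 genes (69.2%) and 50 kb for 1017 (22.8%), with a maximum of 776 kb. The longest stretch that held such a gene and no peak in any library was 1566 kb at chr2:175142100-176708272, with 17 genes, nearly all with Gm or Zfp names. Next came 1533 kb of chromosome 7 around 4933405O20Rik, 1332 kb of chromosome 4 around Gm11232, 1332 kb of chromosome 17 around Fshr, the follicle-stimulating hormone receptor gene, and 1329 kb of chromosome 7 with 7 Gm-numbered genes. Reads of 50 bases cannot be placed between identical copies, and the lists do not show how such reads were treated. Of the listed promoters of unmarked-end genes with no body peak, 22.3% shared at least one 50-base word with the promoter of another gene, against 19.3% for genes marked in all 8 libraries.

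Promoter CpG content differed widely between unmarked and marked genes. The measure is the observed number of CG divided by that expected from the C and G content of the 300 bases. Its median was 0.188 at the outermost listed starts of 2770 unmarked-end genes with no body peak, and 3.79% of them exceeded 0.6. At 10398 genes marked at an end in all 8 libraries the median was 0.763 and 72.5% exceeded 0.6. Genes marked in 1 to 7 libraries lay between, with a median of 0.327 and 25.9%. These values describe sequences, with no p, since genes of a family share sequence. Outside chromosome 18, which has no entry in the sequence table, 81.4% of unmarked-end genes and 81.7% of eligible genes had a listed start.

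**Figure D3:**
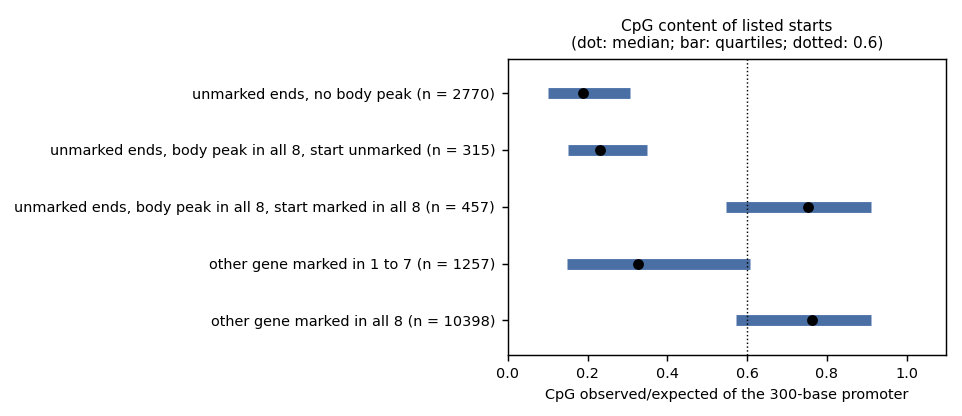
CpG observed/expected of 300-base promoters (x axis, ratio) in 5 groups of listed starts; dots are medians, bars run from the lower to the upper quartile, the dotted line is 0.6 and n counts starts. Unmarked starts lie at medians of 0.188 and 0.232, starts of unmarked-end genes that were marked in all 8 libraries at 0.754, and outermost starts of genes with a peak at an end in all 8 libraries at 0.763.

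The CpG-rich minority among genes with neither end nor body marked numbered 105. Over the unmarked starts of unmarked-end genes, the 5 highest ratios were those of Nkx6-1 (1.18), Ccl21b (1.17), Evx2 (1.13), Nkx2-4 (1.097) and Srp54b (1.03), of which Nkx6-1 had a body peak of 374 bp in control replicate 3. Nkx6-1, Evx2 and Nkx2-4 are homeobox transcription factors. Of the 50-base words in the Ccl21b, Nkx2-4 and Srp54b promoters, 100%, 97.2% and 94.0% also occur in the promoter of another gene, so their unmarked state is uncertain. Among the 105 were also Hoxa11, Hoxa13, Evx1, Cdx2, Foxd3 and Uncx, factors of body patterning.

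Meiosis and piRNA genes were also among the CpG-rich unmarked promoters. In a list of 55 such genes, drawn up after some of them were seen among the 105, 31 had unmarked ends and 24 of these had no body peak. Listed starts existed for 22 of the 24, and 12 of the 22 exceeded a CpG ratio of 0.6. Because the list was drawn up from such genes, that share is raised by the choice and shows nothing about meiosis genes as a class. Ddx4 had a ratio of 0.978, Fkbp6 0.926, Stk31 0.908, Spata22 0.849, Asz1 0.783, Mael 0.780 and Tdrd1 0.733. Mael, Asz1 and Tdrd1 act in the piRNA pathway, which represses transposons in germ cells, and Spata22 in meiotic recombination. Other genes of the list with equally CpG-rich starts were marked in all 8 libraries, among them Dazl at 0.795, Smc1b at 1.08 and Tdrd5 at 1.11. Both parts of the list were CpG-rich: the median was 0.660 over its unmarked-end genes and 0.713 over the others. DNA methylation was not measured in these files.

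Body peaks divided the unmarked-end genes by length. No interior exists in 1012 genes too short for one, and among the 3440 longer genes 28.2% had a body peak in at least 1 library and 17.3% in all 8. The same shares were 51.8% and 29.5% among other eligible genes, and 27% of all eligible genes longer than 4 kb had a body peak in all 8. Genes without a body peak had a median length of 8.48 kb, those with one in 1 to 7 libraries 40.9 kb and those with one in all 8 53.7 kb. Between 4 and 10 kb, 1.21% of unmarked-end genes had a body peak in all 8, against 18.2% of other genes. The shares were closer at 30 to 100 kb, with 27.6% and 31.3%, and at 100 to 300 kb, with 52.2% and 53.1%. In other genes, an end peak that runs more than 2 kb inward also counts as a body peak. Unmarked-end genes cannot have such a peak, so these contrasts are partly set by the rule, to an extent not measured. Body peaks were mostly all or none: 140 genes had one in 1 library, 29 to 69 in each number from 2 to 7, and 596 in all 8.

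**Figure D4:**
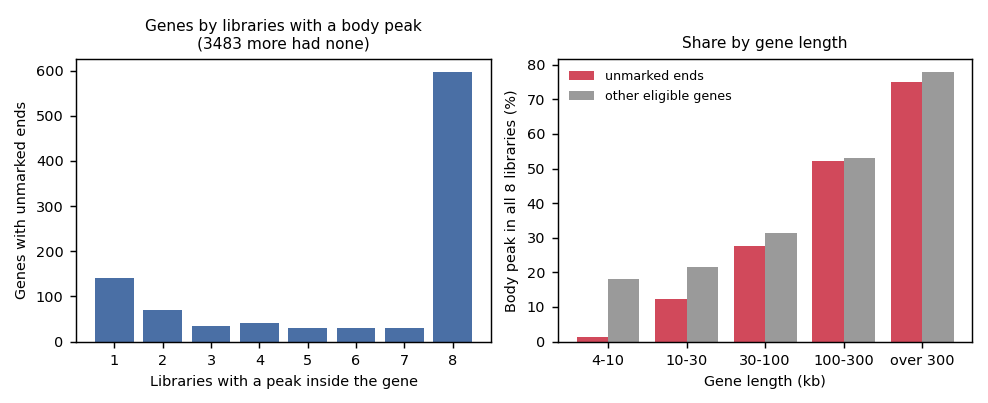
Left, number of unmarked-end genes (y axis) by the number of libraries with a peak inside the gene (x axis). Right, share of genes with a body peak in all 8 libraries (y axis, %) by gene length (x axis, kb) for unmarked-end genes and other eligible genes; the 596 genes at 8 libraries stand out on the left, and both groups rise together with length on the right.

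Some genes with a body peak in all 8 libraries are known for roles in neurons. In 5 neuronal lists chosen after values were seen, 17 of 183 genes had unmarked ends (9.29%, below the 23.3% of all eligible genes) and all 17 had a body peak in all 8 libraries. They were Shank3 and Lrrtm1 of the glutamatergic synapse, the calcium channel genes Cacna1c and Cacna1d and the potassium channel gene Kcnj3, the phosphodiesterase and cyclase genes Pde4c, Pde4d, Pde1a and Adcy9, the guidance genes Slit1, Unc5a, Sema3a and Tenm3, and the transcription factor genes Mef2a, Mef2c, Nfia and Hivep2. These 17 genes were thus unmarked at the limits of the RefSeq model but not throughout it. Because the lists were chosen after values were seen, the body peaks of all 17 show nothing about neuronal genes as a class. Shared regions of Pde4c, Pde4d, Slit1, Tenm3 and Nfia did not lie at own listed starts, while some of Shank3, Lrrtm1, Cacna1c, Kcnj3, Adcy9 and Mef2c did.

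Pde4d, a cAMP phosphodiesterase of 1302 kb at chr13:108654177-109955969, had the largest covered length inside a gene. Peaks covered 19638, 20140, 21186 and 20821 bp in control replicates 1 to 4 and 18695, 21632, 20354 and 21277 bp in transgenic replicates 1 to 4. The groups overlapped, with the lowest and the highest value both transgenic, and their means were 20446 ± 692 and 20490 ± 1312 bp (SD, n = 4 each). The gene held 11 separate regions present in all 8 libraries, up to 5169 bp wide, none of them at a listed start of its own. Its ends lay 62.5 kb or more from any outside peak.

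Nfia encodes a nuclear factor I transcription factor of neurons and glia (chr4:97578066-98118876). Its covered length was 12547, 13113, 12032 and 12692 bp in the controls and 11820, 15337, 12622 and 14251 bp in the transgenic samples. It lay partly in 10 regions shared by all 8, none of them at an own listed start. Transgenic replicates 2 and 4 exceeded every control and replicate 1 lay below them all.

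Trim2, a neuronal ubiquitin ligase (chr3:84160439-84308352), had 10368, 11798, 11208 and 11330 bp in the controls and 11713, 12692, 11954 and 12708 bp in the transgenic samples. Only transgenic replicate 1 fell within the control range. All 4 of its shared regions lay at listed starts of its own. Prkag2, a regulatory subunit of AMP-activated kinase, had 9111 to 11085 bp in the controls and 10752 to 12291 bp in the transgenic samples, and 3 of its 4 shared regions lay at its own listed starts.

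Mef2c (chr13:83504017-83667079) had 7255, 6604, 6559 and 7903 bp in the controls and 5869, 7135, 8233 and 9336 bp in the transgenic samples. The transgenic libraries held both extremes, and the means were 7080 ± 634 and 7643 ± 1485 bp (SD, n = 4 each). The widest of its 3 shared regions, chr13:83523301-83529314, covers the middle start printed above. Shank3 (chr15:89493013-89560261) had 5954, 5695, 5992 and 6821 bp in the controls and 5924, 6146, 6363 and 7250 bp in the transgenic samples, in 4 shared regions. One of these, chr15:89498106-89501613, holds its printed start.

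Among the 12 most covered genes, the narrowest spread belonged to Adcy9, an adenylyl cyclase gene, with 7581 to 8049 bp in controls and 7604 to 7941 bp in transgenic samples. Its region chr16:4413016-4420490 at a listed start held the largest mean covered length of any region inside these genes, 7151 bp. The others of the 12 were Tenm3, a teneurin of synaptic partner matching, Nedd4l, a ubiquitin ligase of ion channels, Psd3, an exchange factor for Arf6, Nrg1, the ligand neuregulin 1, Ywhaz, a 14-3-3 adaptor, and Zmynd8, a chromatin reader. Their library values ran from 5723 bp in Ywhaz to 12805 bp in Tenm3, and the groups overlapped in each. No shared region of Tenm3, Nedd4l, Psd3, Nrg1 or Ywhaz lay at an own listed start, whereas the 2 of Zmynd8 did. Nedd4l lies on chromosome 18, for which no starts are listed. Great length alone did not bring wide coverage: Nkain2 and Cdh13, which with Pde4d, Tenm3 and Nrg1 are the 5 longest, had 2470 to 3508 bp and 1821 to 3092 bp over the 8 libraries.

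**Figure D5:**
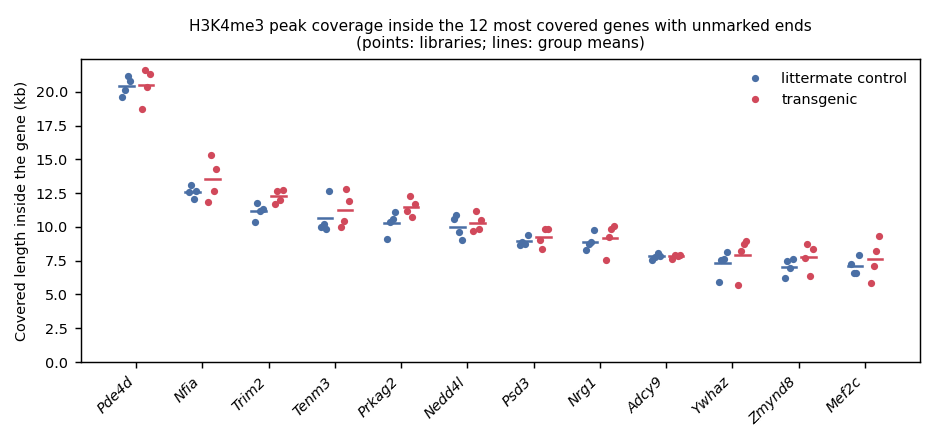
Length covered by H3K4me3 peaks inside the gene (y axis, kb, from 0) in the 12 unmarked-end genes with the largest means; points are libraries and lines are group means of 4 control (blue) and 4 transgenic (red) libraries. Pde4d stands apart at 18695 to 21632 bp, and control and transgenic points overlap in all 12 genes.

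Constantly marked interiors coincided with start sites of the gene in most cases where a start was listed. Of the 596 genes with a body peak in all 8 libraries, 496 had a listed start, 386 of these (77.8%) had one more than 2 kb inside the gene model, and 343 (69.2%) had a start marked in all 8. For 270 of the 496 every listed start lay inside. The corresponding share with a start inside was 8.74% of the 2770 genes with no body peak and a listed start. Looked at by region, 766 stretches were peaks in all 8 libraries, 750 of them distinct, since overlapping genes share some and 6 genes share one. Among the 639 in genes with a listed start, 59.0% lay at an own start. Over all 766, 27.4% lay at the end of another annotated gene and 36.4% at neither an own start nor another gene's end.

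Marked and unmarked starts of the same gene differed in CpG content. In 126 unmarked-end genes with both kinds, the median ratio was 0.713 at the marked starts and 0.234 at the unmarked ones, and the marked start was the higher in 119. Cacna1c stood at 1.16 against 0.253, Hk1 at 0.665 against 0.0507 and Psma6 at 0.697 against 0.185. Lck, the T cell kinase, was an exception, with 0.211 at its marked start and 0.289 at the unmarked one. Since the rule fixes the outer ends as unmarked, which start is marked is partly set by the choice of genes.

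A few tissue genes also carried a constant body peak. Those in the tissue lists numbered 19. Myl4, a myosin light chain of the atrium, had 2344 bp on average, next to the end of Cdc27, and Rag2, of antigen receptor recombination, had 930 bp at the end of Iftap, which overlaps it. Abcb1a, the blood-brain barrier efflux pump, had 2638 bp, part of it at the end of Rundc3b. Lck had 1506 bp at an own start. Atp4a, of the gastric proton pump, Lct, and Pax5, a B cell factor, had 992, 773 and 1651 bp, and their stretches shared by all 8 libraries lay at neither an own listed start nor another gene's end. Slc4a4, a bicarbonate transporter of astrocytes, had 3170 to 6115 bp in the 8 libraries.

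Body peaks that did not recur were short. Of 2248 stretches inside unmarked-end genes, 827 were a peak in 1 library only, with a median width of 216 bp, against 1723 bp for those in all 8. Own starts held 7.13% of the former and 49.2% of the latter.

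Values close to the limit of the rule show how sharply it cuts. The nearest outside peaks of Cbr2, Tex21, Pde4c, Trim10 and Mab21l1 lay 2001, 2002, 2009, 2012 and 2017 bp from an end. Just outside, Cln8, Lat2, Klra3, Larp4 and Adgrb3 had 2, 4, 5, 7 and 9 bp covered, each in 1 library. In all, 393 genes were marked in exactly 1 library, and 99 of all genes outside the set had under 200 bp covered in every library.

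Transgenic and control libraries did not differ detectably in how the unmarked-end genes were marked inside. A peak in fewer cells and a weaker mark in every cell cannot be told apart in such libraries. Controls had body peaks in 712, 719, 717 and 751 of these genes and transgenic libraries in 710, 755, 752 and 730. The groups overlapped, with 724.75 ± 17.7 in controls and 736.75 ± 21.03 in transgenic libraries (SD, n = 4 each; exact two-sided permutation p = 0.4, adjusted 0.6 over 3 summaries). Summed covered length was 1334 ± 77.8 kb and 1376 ± 105 kb (exact permutation p = 0.6, adjusted 0.6). Transgenic replicate 1, which had the longest peak list, had the shortest sum, 1219 kb, against 1423 to 1437 kb in the other 3. The median distance to the nearest peak outside the gene was 30.04 ± 1.57 kb in controls and 29.1 ± 1.25 kb in transgenic libraries (exact permutation p = 0.343, adjusted 0.6). A permutation of 4 against 4 cannot give a p below 0.0286. With every list cut to the length of the shortest, best peaks kept, all 3 differences changed sign, to −22.0 genes, −0.960 kb and 1.37 kb, and none was past the threshold either way. That length, 51903 peaks, counts X and Y. Libraries held 1145 to 31362 peaks on X, so the cut lists need not have equal numbers of autosomal peaks.

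Gene by gene, limma called none of the 6799 genes fitted (0% called) and so none of the 829 unmarked-end genes among them at an adjusted p of 0.05. At an unadjusted p under 0.05 274 of all genes were higher and 131 lower in transgenic libraries, and of the unmarked-end genes 17 were higher and 29 lower. The fit compared log2(covered bp + 100), a scale that understates changes of thinly covered genes. Values were centred on each library's median over genes with a body peak in all 8 libraries. The median difference was −0.07 over the unmarked-end genes and −0.03 over all genes. Of the unmarked-end genes, 269 (32.4%) lay above 0, as did 3073 of all 6799 genes fitted. Without the centring 473 (57.1%) of the unmarked-end genes did, and the medians were 0.017 over these and 0.056 over all genes. Control and transgenic values did not overlap in 16 of the 829 genes, against 3.27% of all genes fitted.

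Of the 10 genes with the smallest p-values per direction, Rhag, Zscan5b, Cyp2c68, Myom3 and Htr3b were thinly covered. Ccdc7b and Ccdc7a, neighbouring coiled-coil genes, had the smallest on the higher side. Ccdc7b had 854, 764, 1324 and 1398 bp in the controls and 3581, 3010, 3222 and 1763 bp in the transgenic samples (log2 difference 1.25 ± 0.25 SE, limma adjusted p = 0.305). Ccdc7a had 672 to 1573 bp in controls and 2508 to 5178 bp in transgenic libraries (1.45 ± 0.29 SE, limma adjusted p = 0.305). Neither pair of groups overlapped. Rhag, a red cell membrane gene, had no body peak in any control and 321, 200, 200 and 483 bp in the transgenic libraries (limma adjusted p = 0.305). Zscan5b and Cyp2c68 came next, with group means of 56.75 and 514 bp and of 156 and 783 bp for controls and transgenic samples (limma adjusted p = 0.556 and 0.667).

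On the lower side, Myom3, an M-band protein gene of muscle, had 311, 288, 238 and 417 bp in the controls and no body peak in any transgenic library. Htr3b, a serotonin receptor subunit gene, likewise had 297, 286, 443 and 200 bp against none (limma adjusted p = 0.262 for both). Cep41, a ciliary protein gene, had 1696, 1842, 1627 and 1717 bp in the controls and 1229, 1234, 1107 and 1509 bp in the transgenic samples, without overlap (−0.50 ± 0.11 SE, limma adjusted p = 0.372), at an own listed start. N4bp2l1 had 2857 to 3107 bp and 2379 to 2718 bp (−0.27 ± 0.07 SE, limma adjusted p = 0.632). Camk4, a nuclear calcium/calmodulin-dependent kinase of neurons, had 3395 to 3783 bp and 2821 to 3503 bp, which overlapped (−0.23 ± 0.06 SE, limma adjusted p = 0.642). None of these 10 passed the threshold after adjustment over all genes fitted.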

How the data were processed

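Chromatin immunoprecipitation and sequencing of H3K4me3 (50-bp single reads, per the labels' protocols) was used in 8 libraries. The submitters' processing notes name build mm10 and MACS2, DiffBind, limma, Bowtie2 2.0.2, deepTools 3.0.1, FastQC 0.11.5 and SAMtools 1.3.1, without roles; which settings were used was not given in the sources used here. The authors deposited 1 peak list per library, with positions, a score, a fold enrichment ratio, and −log10 p-values and q-values. Lists hold no counts, so depth is unknown; a deeper or cleaner library gives more and wider peaks. The 2 input samples (1 per genotype) were not analysed here. The score and the fold ratio deposited were not compared between libraries.

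Covered bp was computed from merged peaks (Python 3.11.15, pandas 2.3.3) over RefSeq gene models of GRCm38.p6, which give no strand. The interior is everything more than 2 kb inside both ends, so it exists only in genes over 4 kb. Positions in exons, introns or untranslated regions were not used here. Members and lists were chosen with earlier results of these data known; 687 of 698 list symbols were eligible genes. Named genes were the first 4 unmarked and the first 3 marked of each list as written (some are not reported here), the 12 highest and 5 lowest families, the 12 most covered and 5 longest genes, the 5 highest CpG ratios, the 5 longest runs and peak-free stretches, the 5 smallest limma p-values per direction, and the nearest 5 on each side of the rule's limit; others were chosen after values were seen.

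Library summaries were compared by exact two-sided permutation (70 assignments), adjusted by Benjamini-Hochberg over 3. Genes with a body peak in at least 2 libraries were fitted with limma 3.58.1 (R 4.3.3; trended, robust; log2(bp + 100), centred, Benjamini-Hochberg), and the script was tested on simulated data. Alternatives were stricter peaks (−log10 q of at least 3), equal list sizes, other windows, pseudocounts and filters, a replicate block and leaving out each library.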

Additional observations from a re-analysis of the deposited data

Results flagged for a closer look

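In 5 of 38 groups of 4 libraries that were examined, 1 library stood apart by the gap to its nearest neighbour over the whole range; chance gives about 1 in 20 groups. Transgenic replicate 1 accounts for 2 of them. Its summed covered length inside unmarked-end genes was 1219 kb, against 1423 to 1437 kb in the other transgenic libraries, and it left 5566 eligible genes unmarked, against 5133 to 5203. The same library had the longest peak list, 102285 peaks, and 31362 peaks on X.

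The other 3 concern single genes in control libraries. Tenm3 had 12673 bp covered in control replicate 4, against 9827 to 10248 bp in the other controls. Cdh13, a cadherin gene of 1185 kb, had 3083 bp in control replicate 3, against 2243 to 2365 bp. Pde4c, a cAMP phosphodiesterase gene, had 1246 bp in control replicate 2, against 1597 to 1633 bp. Their causes were not tested.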

How the results depend on the processing

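The size of the set depended on the window more than on any library. It was 5072 genes with windows of 1 kb and 3543 with 5 kb, 4516 with the stricter peaks, 4631 with equal list sizes and 4551 where under 200 bp in every library counted as unmarked, and leaving out each library in turn gave 4484 to 4530. Cutting every list to the length of the shortest, X and Y included and best peaks kept, reversed the transgenic minus control differences. They became −22.0 genes with a body peak, −0.960 kb covered and 1.37 kb distance, with the cause not tested. Leaving out each library gave 5.92 to 20.9 genes, 14.5 to 93.8 kb and −1.71 to −0.387 kb. Over the 5 libraries with few Y peaks, a choice made after seeing the data, they were 13.7 genes, 38.4 kb and −1.56 kb.

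In the gene-by-gene fit, leaving out control replicate 3 gave 1 called gene, not an unmarked-end gene, and every other setting run gave 0. Each of the 10 named genes kept its direction in every setting in which it was fitted. Same-numbered libraries showed little shared deviation (correlations of −0.02 to 0.09), which cannot exclude that the numbers denote a pairing. With the replicate block the 3 differences had exact permutation p = 0.5, where 0.125 is the smallest possible, and the fit called 0 genes. Without read counts, an unmarked gene is one with no called peak, and a weak signal cannot be told apart from none.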
